A study of Mus musculus with 4 samples.

Results

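The set consists of 37 mouse genes for lysosomal proteases, hydrolases, their cofactors, lysosomal membrane proteins and subunits of the vacuolar proton pump, together with Tfeb, a transcription factor that controls many of them. A gene was a member when a probe with its symbol or transcript was marked well above background on at least 1 array. All 37 passed, among 20628 genes measured on the arrays. They were read by 73 probes, of which 70 were well above background on all 4 arrays. For 20 members several probes were measured (at most 6, for Glb1), and for 17 members 1 probe.

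Total RNA came from macrophages grown for 5 days from the bone marrow of male C57BL/6J mice with macrophage colony-stimulating factor at 3 ng/ml. The Agilent arrays used 1 colour, and all 4 lay on 1 slide read in 1 scan. The groups were Batf2-/- cells (knockout, KO) after 8 h with R848 at 100 ng/ml, untreated KO cells, wild-type (WT) cells after 8 h with R848 at 100 ng/ml, and untreated WT cells, so that the treated and the untreated cells were labelled 8 h and 0 h. Batf2 belongs to the basic leucine zipper proteins that pair with Jun at AP-1 sites. R848 (resiquimod) is an imidazoquinoline that mouse macrophages sense through TLR7 in their endosomes. Each group had 1 array. No difference below therefore has a replicate check, and no test or p-value is given. How many animals or cultures lay behind each array, and how the Batf2 allele was deleted, are not given in the sources used here.

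Lysosomes degrade protein, glycans, lipids and nucleic acids at acid pH, and in macrophages they also digest phagocytosed material and cut antigens for presentation. The proton pump (V-ATPase) acidifies the lumen, the cathepsins cut protein, and the glycosidases, sulfatases and lipid hydrolases take apart glycoconjugates and membranes. TFEB, when it is not held in the cytoplasm by mTORC1, enters the nucleus and binds E-box sequences of the CLEAR type in front of many of these genes. TLR signalling is known to change lysosomal acidity and protease activity in macrophages and dendritic cells, and endosomal TLRs themselves need cathepsins and legumain for their cleavage.

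A RefSeq table of build GRCm38.p6 held the 250 bases before the start of 29 of the 37 members. It had no entry for Ctsb, Ctsh, Galns, Asah1, Npc1, Atp6v0d2, Atp6v1b2 and Atp6v1h. In these windows, on both strands, 3 motifs were searched. They were the E-box core CACGTG, the longer CLEAR core TCACGTGA, which contains the E-box core, and the AP-1 site TGAGTCA, whose other strand reads TGACTCA. A gene with several starts was counted when the window of any of them held the motif. The E-box core CACGTG was present for 11 of the 29 members (37.9%), against 6.86% of 27025 genes in the table. These 11 were Ctsa, Ctsd, Ctsl, Lgmn, Gla, Glb1, Gaa, Naglu, Lamp1, Mcoln1 and Atp6v1a. TCACGTGA was present for 5 of the 29 (17.2%, against 0.907% of all genes), namely Ctsa, Ctsd, Gla, Mcoln1 and Atp6v1a. TGAGTCA was present for 3 of the 29 (10.3%, against 5.16% of all genes), namely Glb1, Neu1 and Psap.

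Windows of 6 members are shown 5′ to 3′ on the gene's own strand, with these motifs in capitals: a protease, a membrane channel and a pump subunit with the CLEAR core, a glycosidase with both kinds of motif, a cofactor with the AP-1 site, and Ctsc, which had none of the 3 and was the cathepsin most raised by R848. The window of Ctsd was chr7:142387828-142388077 (minus strand), that of Mcoln1 chr8:3500269-3500518 (plus strand) and that of Atp6v1a chr16:44139260-44139509 (minus strand). The window of Glb1 was chr9:114400828-114401077 (plus strand), that of Psap chr10:60277378-60277627 (plus strand, 1 of 2 starts in the table) and that of Ctsc chr7:88277835-88278084 (plus strand). Where the table had several starts, the one with the most motif matches is shown, or the first among equals.
Ctsd: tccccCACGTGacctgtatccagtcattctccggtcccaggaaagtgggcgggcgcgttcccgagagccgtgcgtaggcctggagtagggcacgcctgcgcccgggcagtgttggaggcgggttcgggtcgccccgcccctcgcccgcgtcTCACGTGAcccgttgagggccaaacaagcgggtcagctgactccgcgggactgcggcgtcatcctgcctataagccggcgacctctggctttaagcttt
Mcoln1: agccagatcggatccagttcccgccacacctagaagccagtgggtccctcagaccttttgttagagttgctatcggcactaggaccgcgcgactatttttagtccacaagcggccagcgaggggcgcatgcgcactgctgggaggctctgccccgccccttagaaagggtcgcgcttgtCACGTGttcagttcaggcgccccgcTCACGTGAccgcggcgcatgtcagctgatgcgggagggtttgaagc
Atp6v1a: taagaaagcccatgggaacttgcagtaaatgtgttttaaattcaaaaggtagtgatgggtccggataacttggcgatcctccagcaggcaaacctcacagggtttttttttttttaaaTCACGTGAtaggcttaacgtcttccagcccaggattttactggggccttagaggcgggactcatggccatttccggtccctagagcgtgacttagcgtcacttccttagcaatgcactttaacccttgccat
Glb1: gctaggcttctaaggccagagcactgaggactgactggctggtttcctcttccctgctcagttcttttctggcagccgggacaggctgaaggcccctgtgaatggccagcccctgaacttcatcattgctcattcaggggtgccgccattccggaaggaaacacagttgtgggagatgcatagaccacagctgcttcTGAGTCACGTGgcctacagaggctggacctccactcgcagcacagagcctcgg
Psap: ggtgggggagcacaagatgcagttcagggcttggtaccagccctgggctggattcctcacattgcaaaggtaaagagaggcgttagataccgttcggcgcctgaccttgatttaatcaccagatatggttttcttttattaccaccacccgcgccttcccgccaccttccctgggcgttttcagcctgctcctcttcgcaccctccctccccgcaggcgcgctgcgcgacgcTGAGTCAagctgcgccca
Ctsc: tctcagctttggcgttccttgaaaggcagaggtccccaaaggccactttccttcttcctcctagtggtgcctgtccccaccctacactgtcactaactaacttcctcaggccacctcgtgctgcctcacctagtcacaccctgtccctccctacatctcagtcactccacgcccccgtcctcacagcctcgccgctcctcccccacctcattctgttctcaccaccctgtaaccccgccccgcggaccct

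Counted back from the start, Ctsd had CACGTG at bases 245 to 240 and again inside TCACGTGA at bases 99 to 92. Mcoln1 had CACGTG at bases 71 to 66 and TCACGTGA at bases 46 to 39, and Atp6v1a had TCACGTGA at bases 132 to 125. In the Glb1 window the AP-1 site at bases 53 to 47 ran into the E-box at bases 48 to 43, so that these motifs overlapped. Psap had TGAGTCA at bases 18 to 12. A match in a window is a description of its letters.

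A level below is the processed signal of the gene's brightest probe divided by the 75th percentile of all probes on the same array, so that a level of 1 equals that percentile. Levels of different genes are read by different probes and are not compared. Differences are on the log2 scale unless a fold is named, and a gene was counted as higher or lower from 2-fold on. Over 289 probes with 10 spots each, the SD of the log2 difference between spots had a median of 0.068 for the KO response and 0.073 for the WT response. For KO against WT it was 0.072 with R848 and 0.069 untreated, and for the KO response minus the WT response it was 0.101. Such a spread is technical and holds no variation between cultures. The 75th percentile of the signal was 252 to 278, 60.6% to 71.4% of probes were well above background, and no spot was saturated. The array labelled KO with R848 read Batf2 at a level of 0.0428, which was not well above background, against 0.357 on the array of WT cells with R848 (at least 6.20-fold lower in KO). Untreated, Batf2 read 0.102 in KO cells and 0.123 in WT cells. Whether its probe lies in the deleted part is not given. All 8 macrophage markers listed were well above background on all 4 arrays.

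Most members of the set had lower levels with R848 in both genotypes, by small differences. In KO cells 29 of the 37 members had a lower level with R848 than untreated, with a median log2 difference of -0.44, against -0.06 over all 19840 genes compared. In WT cells 33 of the 37 had a lower level, with a median of -0.47, against -0.03 over 18763 genes. In KO cells 2 members (Ctsc and Atp6v1h) were at least 2-fold higher and 3 (Atp6v0d2, Lgmn and Man2b1) at least 2-fold lower, where 6.84% and 6.57% of all genes were. In WT cells 1 member (Atp6v1h) was at least 2-fold higher and 4 (Atp6v0d2, Gaa, Man2b1 and Ctsk) at least 2-fold lower, where 6.19% and 7.01% of all genes were. In both genotypes the share of members past 2-fold was near that of all genes. Among the 8755 genes whose mean level was at or above the 75th percentile, 35 of them members, the median of all was 0.01 in KO cells and 0.05 in WT cells. In a bulk sample, fewer cells of a type and less RNA per cell cannot be told apart.

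**Figure D1:**
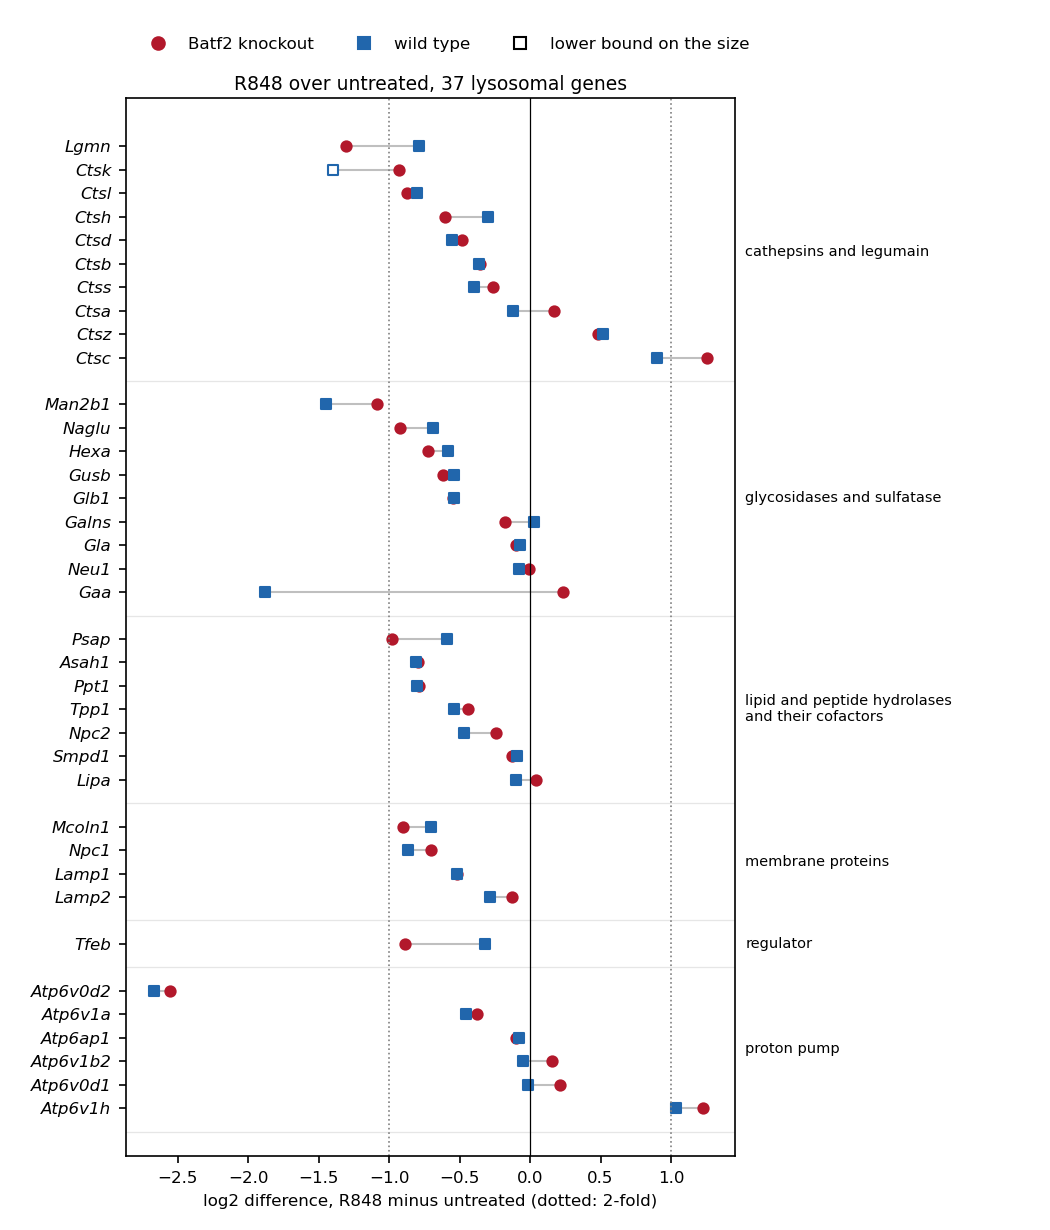
Log2 difference of R848 minus untreated (x axis) for each of the 37 genes (y axis, grouped by role), with Batf2 knockout cells as red circles and wild-type cells as blue squares, 1 array per group. The open symbol is a lower bound on the size, dotted lines mark 2-fold, and most pairs lie left of 0 and close together, with Atp6v0d2 farthest left and Gaa the widest pair.

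The medians of the roles were alike for all but the pump and Tfeb. In KO and in WT cells they were -0.42 and -0.38 for the 10 cathepsins and legumain, -0.55 and -0.54 for the 9 glycosidases and sulfatase, -0.44 and -0.54 for the 7 lipid and peptide hydrolases with their cofactors, and -0.61 and -0.61 for the 4 membrane proteins. These 4 medians stayed below 0 under each of 9 other ways of processing. The 6 pump subunits had medians of 0.03 in KO cells and -0.06 in WT cells, and these changed sign under 4 and 1 of the 9 alternatives.

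Among the 10 proteases, 7 had lower levels with R848 in both genotypes, 2 had higher levels in both, and Ctsa differed in sign. Ctsl, a cysteine endopeptidase, was read by a probe with 10 spots on each array. Its level was 80.1 with R848 and 147 untreated in KO cells, against 54.4 with R848 and 94.6 untreated in WT cells. The 10 spots ranged from 77.8 to 81.8 and from 141 to 156 in KO cells with R848 and untreated, and from 51.8 to 56.4 and from 91.4 to 96.6 in WT cells. The spots of the 4 arrays did not overlap, and the log2 difference was -0.87 in KO cells and -0.80 in WT cells, with an SD over spots of 0.048 and 0.042. A second Ctsl probe had levels of 0.488 with R848 and 5.27 untreated in KO cells, and 0.375 with R848 and 3.49 untreated in WT cells. There the differences were -3.43 and -3.22, so the probes of Ctsl gave the same direction and different sizes.

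**Figure D2:**
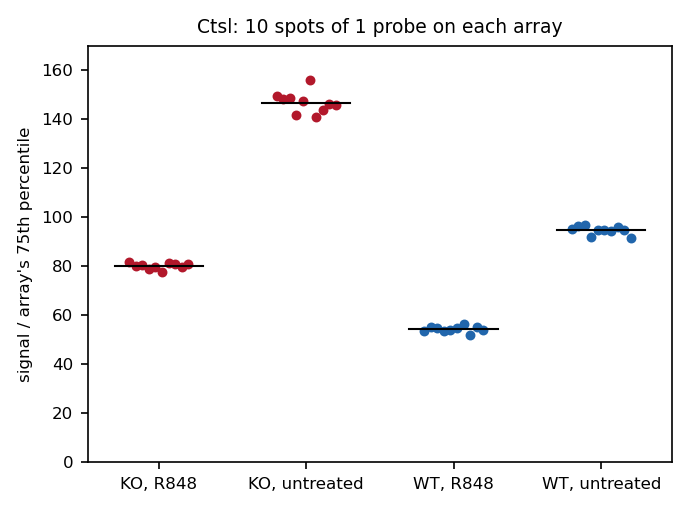
Level of Ctsl (signal over the array's 75th percentile, linear axis from 0) in each of the 10 spots of 1 probe on the 4 arrays, with the geometric mean as a line. Spots of an array scatter by far less than the arrays differ, and this scatter is technical.

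Lgmn, the asparaginyl endopeptidase legumain that cleaves cathepsins and endosomal TLRs, had levels of 18.6 with R848 and 46.0 untreated in KO cells, and 22.2 with R848 and 38.3 untreated in WT cells. It fell 2.47-fold in KO cells, while in WT cells the difference was -0.79. Ctsd, an aspartic protease, read 158 with R848 and 221 untreated in KO cells, and 126 with R848 and 184 untreated in WT cells (-0.48 and -0.55). Ctsb, a cysteine protease that also trims peptides from their ends, read 204 and 261 in KO cells with R848 and untreated, and 166 and 213 in WT cells. Its differences of -0.36 in KO cells and -0.36 in WT cells were among the closest pairs of the set. Ctss, the cysteine protease that degrades the invariant chain of MHC class II, read 308 with R848 and 369 untreated in KO cells, against 247 with R848 and 326 untreated in WT cells. For Ctss the R848 arrays lay below the untreated arrays within each genotype, and the KO array lay above the WT array under each treatment. Ctsh, an aminopeptidase, read 7.48 with R848 and 11.4 untreated in KO cells, and 9.01 with R848 and 11.1 untreated in WT cells.

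Ctsk, the collagen-degrading cathepsin known from osteoclasts, was dim. Its level was 0.235 with R848 and 0.448 untreated in KO cells, and 0.185 in untreated WT cells. On the array of WT cells with R848 it read 0.0472, not well above background. It was therefore at least 2.64-fold lower with R848 in WT cells, while in KO cells the log2 difference was -0.93. With normexp the difference in WT cells was -0.54, under 2-fold. Ctsk was the member whose probe used was not well above background on every array.

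Of the 10 proteases, 2 had higher levels with R848 in both genotypes. Ctsc, the dipeptidyl peptidase that activates serine proteases of granules, read 7.98 with R848 and 3.34 untreated in KO cells, a rise of 2.39-fold (0.94 on the log2 scale, under 2-fold, with the mean over its probes). In WT cells it read 8.22 with R848 and 4.39 untreated, a difference of 0.90 that stayed under 2-fold. Its other 2 probes pointed the same way in both genotypes, with differences from 0.19 to 0.79. Ctsz, a carboxypeptidase, read 147 with R848 and 106 untreated in KO cells, and 135 with R848 and 94.6 untreated in WT cells (0.48 and 0.52). Ctsa, a carboxypeptidase that also shields beta-galactosidase and the sialidase Neu1, read 55.7 with R848 and 49.6 untreated in KO cells, and 41.9 with R848 and 45.6 untreated in WT cells. Its differences of 0.17 and -0.12 lay on opposite sides of 0, the first changed sign when all probes were averaged, and the second when arrays were scaled to their medians.

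The glycosidases were led by Man2b1, the lysosomal alpha-mannosidase. It read 10.8 with R848 and 22.9 untreated in KO cells, and 7.38 with R848 and 20.2 untreated in WT cells. Man2b1 thus fell 2.13-fold in KO cells and 2.73-fold in WT cells, but with median scaling the KO difference was -0.94, under 2-fold, which left 2 lower members in KO cells in place of 3. Naglu, which removes N-acetylglucosamine from heparan sulfate, read 5.27 with R848 and 9.96 untreated in KO cells, and 4.37 with R848 and 7.03 untreated in WT cells (-0.92 and -0.69). Hexa, the alpha subunit of beta-hexosaminidase, read 42.2 with R848 and 69.6 untreated in KO cells, and 38.5 with R848 and 57.7 untreated in WT cells (-0.72 and -0.58). Both genes had lower levels on the R848 array of each genotype without passing 2-fold.

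Gusb, the beta-glucuronidase, read 10.5 with R848 and 16.1 untreated in KO cells, and 7.33 with R848 and 10.7 untreated in WT cells (-0.62 and -0.54). Its dimmer probe had differences of 0.09 and 0.28, so the probes of Gusb disagreed on the response. Glb1, the beta-galactosidase whose window is shown above, read 7.63 with R848 and 11.2 untreated in KO cells, and 5.43 with R848 and 7.90 untreated in WT cells. At this probe the differences of -0.55 and -0.54 were closer to each other than the spread between spots, while another probe gave -0.80 and -0.97. Of its 6 probes, 5 had lower levels with R848 in each genotype and 1, with a level under 0.3 on all arrays, did not.

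Within each genotype, little separated the R848 array from the untreated array for Gla, Neu1 and Galns at the probe used. Gla, the alpha-galactosidase, read 101 with R848 and 108 untreated in KO cells, and 102 with R848 and 107 untreated in WT cells. Neu1, the lysosomal sialidase, read 4.36 and 4.38 in KO cells with R848 and untreated, and 3.74 and 3.95 in WT cells. Galns, the sulfatase that acts on keratan sulfate, read 1.86 and 2.11 in KO cells with R848 and untreated, and 1.80 and 1.76 in WT cells. Their 6 log2 differences of R848 minus untreated lay between -0.18 and 0.03. Each of these genes changed the sign of at least 1 such difference under another way of processing. A dimmer Galns probe gave -0.32 in KO and -0.15 in WT cells. Between the untreated arrays, Galns was higher in KO cells by 0.26 at each probe.

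Gaa, the acid alpha-glucosidase that degrades glycogen, was the member whose array values differed most between genotypes. Its level was 0.428 with R848 and 0.364 untreated in KO cells, and 0.385 with R848 and 1.42 untreated in WT cells. The untreated WT array alone stood apart, and Gaa fell 3.69-fold with R848 in WT cells against a difference of 0.23 in KO cells. Of the other 2 probes of Gaa, 1 went the same way by less. It read 0.445 with R848 and 0.456 untreated in KO cells, and 0.421 with R848 and 0.618 untreated in WT cells (-0.04 and -0.55). The third probe read 0.0811 and 0.108 in KO cells with R848 and untreated, and 0.133 and 0.0779 in WT cells, the opposite order in WT cells. With the mean over its probes no difference of Gaa reached 2-fold, and the counts above are 3 in place of 4 lower members in WT cells without it.

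**Figure D3:**
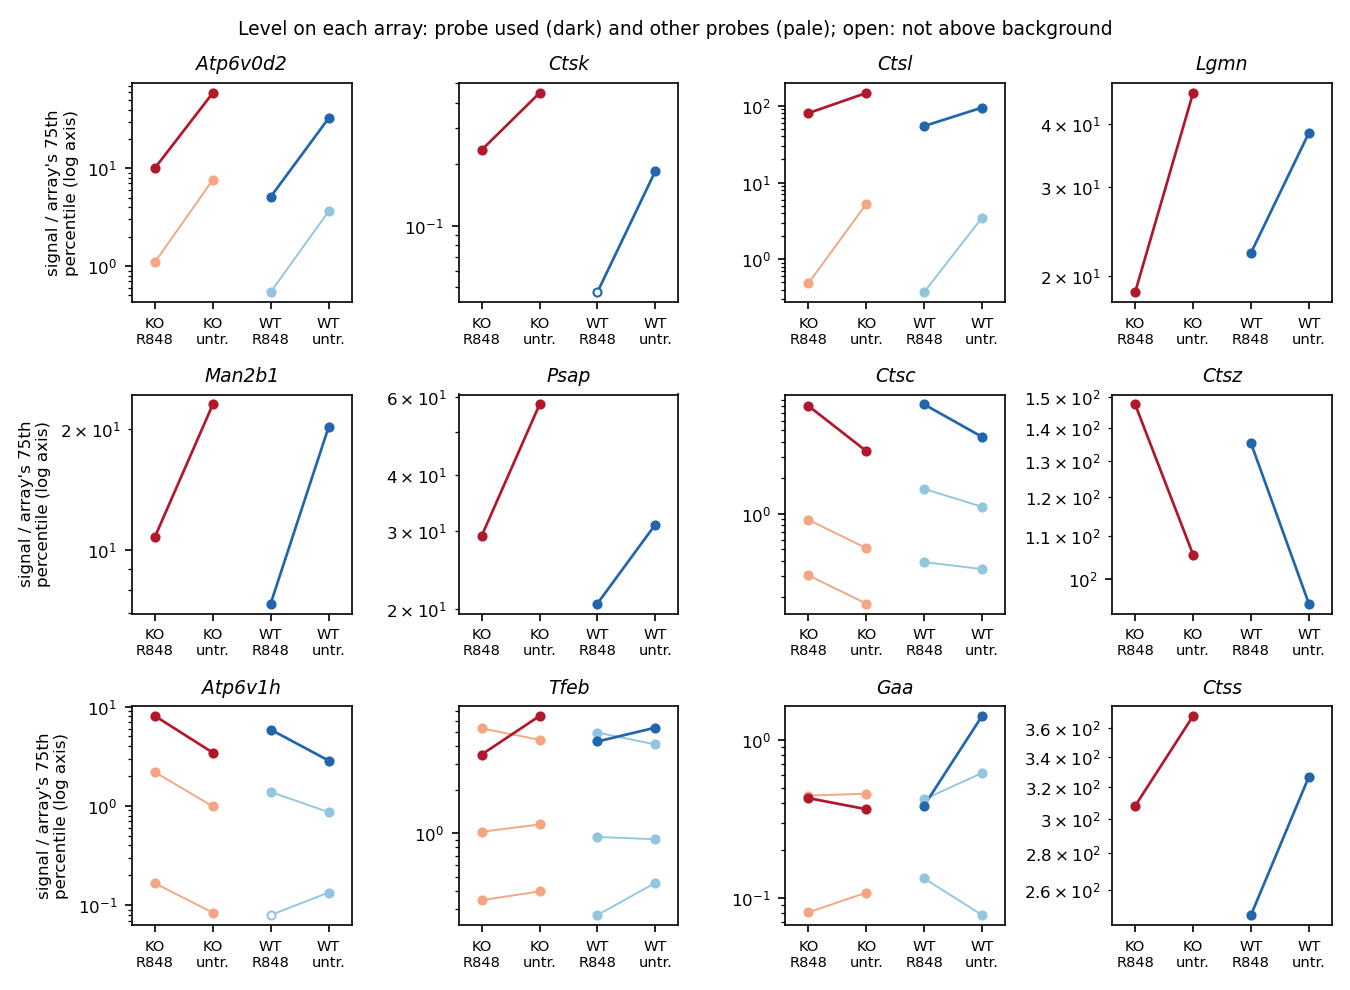
Level on each array (log axis, signal over the array's 75th percentile) for 12 genes of the set, with knockout in red and wild type in blue, R848 left of untreated, the probe used dark and the other measured probes pale. Probes of Atp6v0d2 and Ctsl run in parallel or the same way, while those of Tfeb and Gaa cross. Open points were not well above background.

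Lipid and peptide hydrolases and their cofactors had no member past 2-fold. Psap, the precursor of the saposins that present sphingolipids to their hydrolases, came nearest. It read 29.2 with R848 and 57.8 untreated in KO cells, against 20.6 with R848 and 31.0 untreated in WT cells, with differences of -0.98 and -0.59. Under 4 of the 9 alternatives its KO response was past 2-fold. Asah1, the acid ceramidase, read 7.33 with R848 and 12.7 untreated in KO cells, and 6.35 with R848 and 11.1 untreated in WT cells (-0.80 and -0.81). Ppt1, which removes palmitate from protein, read 1.62 with R848 and 2.80 untreated in KO cells, and 1.66 with R848 and 2.89 untreated in WT cells (-0.79 and -0.80). For both, the genotypes' responses at the probe used differed by less than the spread between spots. Other probes did not all keep this closeness. A second Asah1 probe gave -0.80 in KO and -0.63 in WT cells. Dimmer Ppt1 probes gave -0.84 and -1.33 (past 2-fold in WT cells), -0.56 and -0.40, and -0.04 and -0.01.

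Tpp1, a tripeptidyl peptidase, read 4.24 with R848 and 5.74 untreated in KO cells, and 3.42 with R848 and 4.97 untreated in WT cells (-0.44 and -0.54). Npc2, the soluble protein that hands cholesterol to NPC1, read 29.6 with R848 and 35.0 untreated in KO cells, and 26.2 with R848 and 36.3 untreated in WT cells (-0.24 and -0.47). Lipa, the acid lipase, and Smpd1, the acid sphingomyelinase, had differences within 0.13 of 0 in both genotypes at the probe used. A dimmer Smpd1 probe gave 0.23 in KO and -0.29 in WT cells. Lipa read 20.3 with R848 and 19.7 untreated in KO cells, and 15.3 with R848 and 16.4 untreated in WT cells. Smpd1 read 14.2 with R848 and 15.6 untreated in KO cells, and 13.5 with R848 and 14.4 untreated in WT cells.

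All 4 membrane proteins had lower levels with R848 in both genotypes, none past 2-fold at the probe used. Mcoln1, the calcium channel of the lysosomal membrane whose window holds the CLEAR core, read 2.99 with R848 and 5.59 untreated in KO cells, and 3.45 with R848 and 5.62 untreated in WT cells (-0.90 and -0.71). Npc1, which exports cholesterol, read 6.40 with R848 and 10.4 untreated in KO cells, and 4.77 with R848 and 8.70 untreated in WT cells (-0.71 and -0.87). Lamp1, an abundant glycoprotein of the membrane, read 163 with R848 and 233 untreated in KO cells, and 132 with R848 and 189.5 untreated in WT cells, and its differences were -0.52 and -0.52. Lamp2, which also takes part in autophagy carried out by chaperones, read 27.1 with R848 and 29.6 untreated in KO cells, and 25.6 with R848 and 31.2 untreated in WT cells (-0.13 and -0.29). The first of these changed sign with median scaling. Second probes of Lamp1 (-0.26 in KO and -0.09 in WT cells) and Mcoln1 (-0.37 and -0.52) kept the direction with other sizes. Dimmer Npc1 probes gave -0.88 and -0.002, and -0.59 and -0.53. Another dim Npc1 probe was past 2-fold in KO cells (-1.07) and fell by at least 0.72 in WT cells. Dimmer Lamp2 probes gave -0.35 and -0.59, and -1.14 (past 2-fold in KO cells) and -0.58.

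Tfeb was read by 4 probes that disagreed. The brightest on average read 3.52 with R848 and 6.51 untreated in KO cells, and 4.33 with R848 and 5.40 untreated in WT cells (-0.89 and -0.32). A probe of like brightness read 5.34 with R848 and 4.45 untreated in KO cells, and 4.99 with R848 and 4.13 untreated in WT cells (0.26 and 0.27). No direction can be given for Tfeb.

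The proton pump split into subunits at opposite ends. Atp6v0d2, the d subunit isoform of the membrane sector that is known from osteoclasts and macrophages, fell most of the 37 in both genotypes. It read 10.1 with R848 and 59.1 untreated in KO cells, and 5.11 with R848 and 32.5 untreated in WT cells. With R848, Atp6v0d2 fell 5.87-fold in KO cells and 6.36-fold in WT cells. Its second probe read 1.09 with R848 and 7.63 untreated in KO cells, and 0.542 with R848 and 3.63 untreated in WT cells, with differences of -2.80 and -2.74. Both probes and every alternative gave a fall of more than 2-fold. Its counterpart Atp6v0d1, the d subunit found in all tissues, read 11.9 with R848 and 10.3 untreated in KO cells, and 10.3 with R848 and 10.4 untreated in WT cells (0.21 and -0.01).

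Atp6v1h, a regulatory subunit of the soluble sector, rose. It read 8.05 with R848 and 3.44 untreated in KO cells, and 5.86 with R848 and 2.86 untreated in WT cells, a rise of 2.34-fold in KO cells and 2.05-fold in WT cells. The call in WT cells sat at the threshold, was kept by 5 of the 9 alternatives, and was 0.32 with the mean over probes. In WT cells 1 dim probe of the gene went the other way, and it was not well above background with R848. Atp6v1a, which forms the catalytic sites, read 81.8 with R848 and 106 untreated in KO cells, and 59.8 with R848 and 81.9 untreated in WT cells (-0.37 and -0.45). Atp6v1b2, its partner in the ring, read 176 with R848 and 158 untreated in KO cells, and 140 with R848 and 145 untreated in WT cells (0.15 and -0.05). Atp6ap1, an accessory subunit needed for assembly, read 7.67 with R848 and 8.21 untreated in KO cells, and 7.12 with R848 and 7.51 untreated in WT cells. Its differences of -0.10 and -0.08 changed sign with median scaling.

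The responses of the genotypes were close to each other, and they share no array. Of the 37 members, 28 had responses within 0.25 of each other on the log2 scale, 34 within 0.5, and 31 had the same sign. Across the members Pearson's r between the responses was 0.81 and Spearman's rho 0.79, or 0.94 and 0.90 over the 36 members without Gaa. For 18457 genes these were 0.78 and 0.67. Genes are not independent, and the points share probes and arrays. The difference between the responses, KO minus WT, had a median of 0.01 and was at least 2-fold for Gaa alone (2.12 on the log2 scale, higher in KO), where 3.16% of all genes were higher and 2.71% lower. Tfeb (-0.57) and Lgmn (-0.52) followed on the other side of 0. Members with CACGTG in the window had a median response of -0.52 in KO cells and -0.55 in WT cells (11 genes), and members without it -0.25 and -0.36 (18 genes). The 11 with the motif reached from -1.31 to 0.23 in KO cells and the 18 without it from -1.09 to 1.26, so the groups overlapped.

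Between genotypes, most members had a slightly higher level in KO cells. With R848 30 of the 37 were higher in KO than in WT cells, with a median difference of 0.27, against 0.04 over all 18768 genes compared. Untreated, 30 of the 37 were higher in KO cells too, with a median of 0.21, against 0.06 over 20301 genes. Such a shift was not particular to the set. With R848 and untreated, the median was 0.29 and 0.26 for the macrophage markers and 0.28 and 0.19 for other pump subunits. It was 0.21 and 0.25 for relatives of TFEB with mTORC1 and its anchors, but -0.71 and -0.45 for cathepsin inhibitors. With R848 only Ctsk was at least 2-fold higher and none at least 2-fold lower, where 2.34% and 2.45% of all genes were. Untreated, Ctsk was at least 2-fold higher and Gaa at least 2-fold lower, where 2.8% and 3.18% of all genes were. In number of calls the set was near the background.

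**Figure D4:**
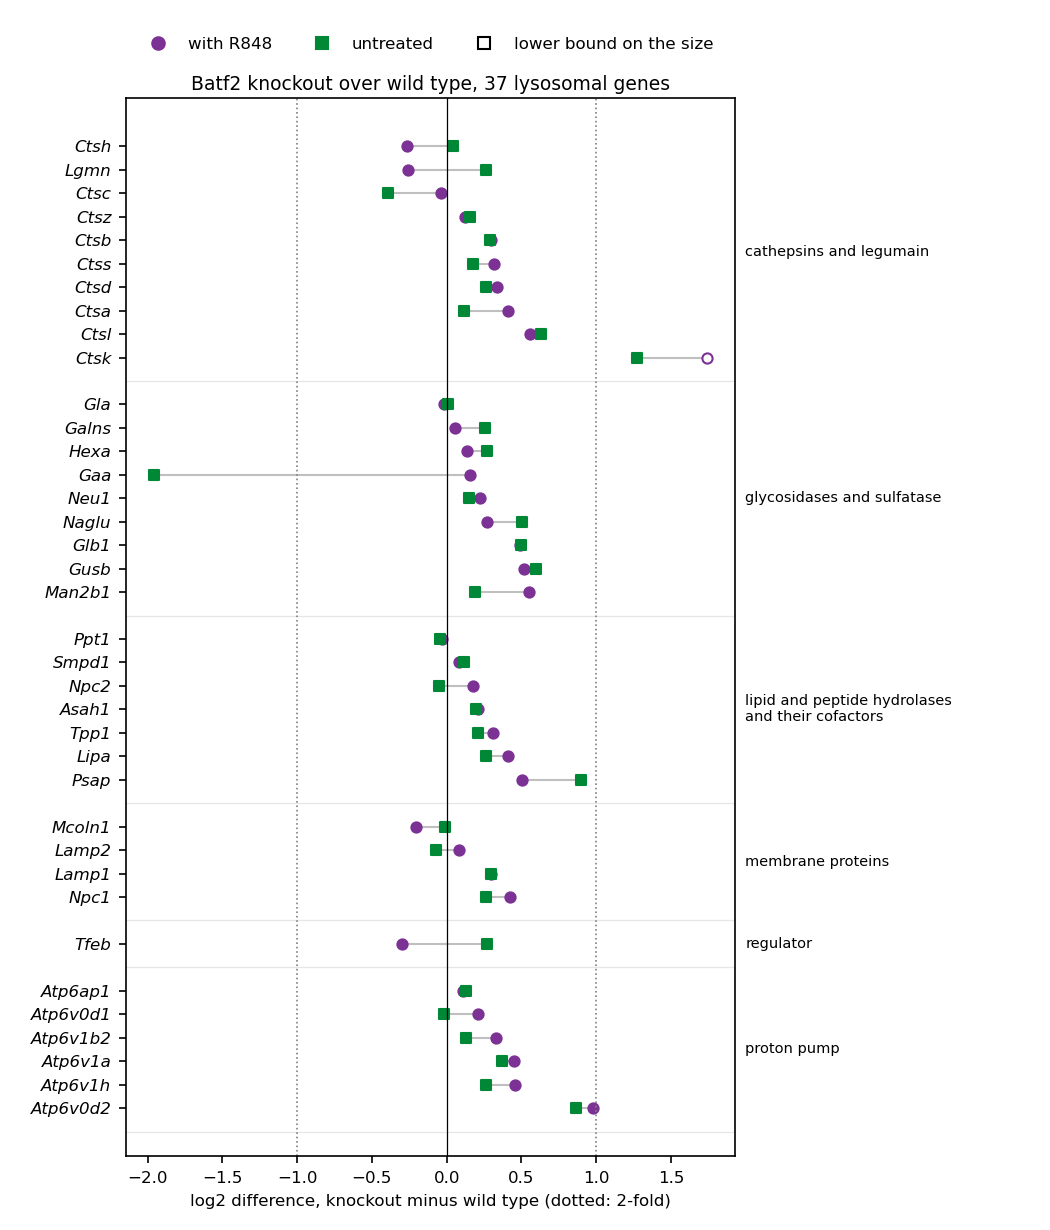
Log2 difference of Batf2 knockout minus wild type (x axis) for each of the 37 genes (y axis, grouped by role), with R848 as purple circles and untreated as green squares, 1 array per group. The open symbol is a lower bound, dotted lines mark 2-fold, and 30 of 37 symbols of each colour lie right of 0.

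By role, with R848 and untreated, the medians of KO over WT were 0.31 and 0.22 for the cathepsins and legumain, 0.22 and 0.26 for the glycosidases and sulfatase, 0.21 and 0.19 for the lipid and peptide hydrolases, 0.19 and 0.13 for the membrane proteins, and 0.39 and 0.20 for the pump. Each of these stayed above 0 under all 9 alternatives. Ctsk, at the levels given above, was at least 3.35-fold higher in KO cells with R848 and 2.42-fold higher untreated. Under background correction by normexp, which adds an offset to every signal, these differences were 0.68 and 0.63 on the log2 scale. Atp6v0d2 was higher in KO cells by 0.98 with R848 and by 0.86 untreated, just under 2-fold, and its second probe gave 1.01 and 1.07. Psap (0.51 and 0.90), Ctsl (0.56 and 0.63), Gusb (0.52 and 0.60) and Glb1 (0.49 and 0.50) followed in the same direction, by more than the spread between spots. The probes of Glb1 disagreed, with 4 of 6 higher in KO cells. Its dimmest probes were lower there, by -0.22 and -0.20, and by -0.37 and -0.15. Man2b1 differed by 0.55 with R848 and by 0.19 untreated.

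A few members lay on the other side. Ctsc was lower in KO cells by a difference of -0.04 with R848 and -0.40 untreated, and its other 2 probes gave -0.37 and -0.86 with R848 and -0.96 and -1.15 untreated. Ctsh differed by -0.27 with R848 and by 0.04 untreated, and Lgmn by -0.26 and 0.26. Untreated, Gaa was 3.89-fold lower in KO cells at the probe used, and with R848 it differed by 0.16. Gla, with -0.02 and 0.01, was the same on the arrays of both genotypes to within the spread between spots.

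Markers of other cell types moved with genotype on these arrays. Of 10 basophil and mast cell markers, 6 were at least 2-fold lower in KO cells with R848 and 7 untreated. Their levels summed to 3.20 with R848 and 2.92 untreated in KO cells, against 13.9 with R848 and 23.4 untreated in WT cells. The lowest was the basophil protease Mcpt8, at least 49.9-fold lower in KO cells with R848 and 47.0-fold lower untreated. Of 11 granulocyte and precursor markers measured, 6 were at least 2-fold lower in KO cells with R848 and 7 untreated, with none at least 2-fold higher. Their levels summed to 300.0 with R848 and 324 untreated in KO cells, against 471 with R848 and 607 untreated in WT cells. No probe was named as Ly6g, so this gene was not measured. Within each genotype, 4 of these 11 were lower with R848 in KO cells and 6 in WT cells. Ctsk and Atp6v0d2 are also osteoclast genes, and the 10 measured of 11 osteoclast and macrophage fusion markers (without Calcr) summed to 160 with R848 and 115 untreated in KO cells, against 131 with R848 and 104 untreated in WT cells. Within these sums Acp5 alone read 70.6 with R848 and 38.5 untreated in KO cells, against 40.6 and 16.3 in WT cells. Of these 10, none was past 2-fold between genotypes with R848, and untreated Acp5 was higher (1.24) and Itgb3 lower (-1.17) in KO cells. Compared with untreated cells of the same genotype, 2 of the 10 were at least 2-fold higher after R848 within KO cells. Within WT cells 3 were higher and 1 lower after R848. The 8 macrophage markers summed to 807 with R848 and 734 untreated in KO cells, against 686 with R848 and 636 untreated in WT cells. With R848 the phagocytic receptor Mertk was lowest among them (-1.99 in KO and -2.50 in WT cells) and the LPS co-receptor Cd14 highest (2.04 and 2.36). Between genotypes Mertk was just past 2-fold higher in KO cells with R848. Of the 8 dendritic cell markers, Ccr7 was 2.60-fold lower in KO than in WT cells with R848, and Itgax, an integrin that macrophages also carry, was 2.77-fold higher in KO cells untreated. The levels of these 8, most of them from Siglech, summed to 46.5 to 52.9, those of the 4 measured B and T cell markers (of 7) to 5.66 to 6.10 and those of the 5 measured stromal markers (of 6) to 10.2 to 16.0 over the 4 arrays. The part of other cells in the differences of the set was not tested.

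Other genes of the lysosome had smaller median responses to R848 than the set. Of 97 listed, 91 were measured. In KO cells 9 of these were at least 2-fold higher with R848 and 9 lower, with a median of -0.05. These were 9.89% each, against 6.84% and 6.57% of all genes. In WT cells 9 were higher and 12 lower of 90 compared, with a median of -0.14. These were 10% and 13.3%, against 6.19% and 7.01% of all genes. Between genotypes, 2 of 90 were higher in KO cells with R848 and none lower, where 2.34% and 2.45% of all genes were. Their median of 0.23 was close to the 0.27 of the set. Untreated, 2 were higher and 1 lower, where 2.8% and 3.18% of all genes were (median 0.11, against 0.21 for the set).

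**Figure D5:**
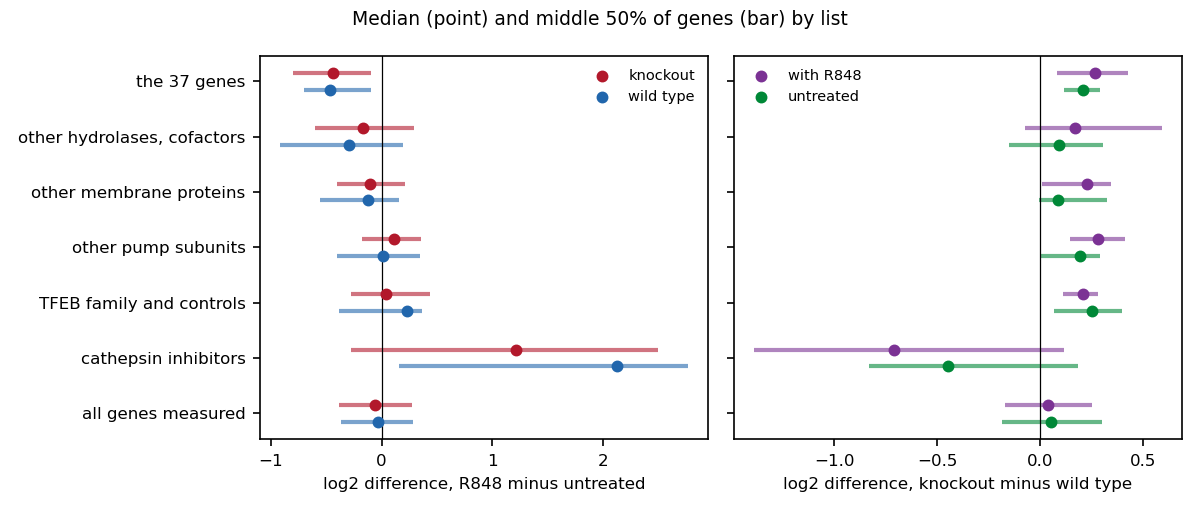
Median (point) and middle 50% (bar) of the log2 difference for the 37 genes, 5 other lists and all genes measured. On the left is R848 minus untreated in knockout (red) and wild-type cells (blue), and on the right knockout minus wild type with R848 (purple) and untreated (green). The 37 genes lie left of all genes on the left panel and right of them on the right panel, and the cathepsin inhibitors lie the opposite way on both.

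Among the 41 measured other hydrolases and cofactors, 4 were at least 2-fold higher and 6 lower with R848 in KO cells, and 5 higher and 9 lower in WT cells. Galc, which degrades galactosylceramide, fell 4.90-fold in KO cells and at least 7.80-fold in WT cells. On the log2 scale, the carboxypeptidase Prcp fell (-1.13 in KO and -1.40 in WT cells), as did the arylsulfatase Arsb (-1.10 and -1.18) and the sialate esterase Siae (-1.09 and -1.61). The beta-mannosidase Manba fell in WT cells (-1.51) and had a difference of -0.73 in KO cells. The acid ribonuclease gene Rnaset2a rose in KO (1.11) and WT cells (1.34). Its near copy Rnaset2b rose 4.22-fold in KO cells and at least 5.36-fold in WT cells, and probes of such copies may share transcripts. Between genotypes with R848, the cathepsin Ctsf (1.22) and the phospholipase Pla2g15 (1.02) were at least 2-fold higher in KO cells. Untreated, the acid phosphatase Acp5 was higher (1.24) and the phospholipase-like Plbd1 lower (-1.31) in KO cells.

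Of 34 other membrane proteins, 5 were at least 2-fold higher and 3 lower with R848 in KO cells, and 4 higher and 3 lower in WT cells. The channel Mcoln2 rose (3.24 in KO and 3.21 in WT cells on the log2 scale), while its relative Mcoln1 had differences of -0.90 and -0.71. The metal transporters Slc11a2 (1.90 and 1.85) and Slc11a1 (1.31 and 1.37) rose in KO and WT cells. The histidine and peptide transporter Slc15a3 rose too (1.10 and 1.44). The chloride transporter Clcn7 rose in KO cells (1.49) and differed by 0.82 in WT cells. Lower in KO and WT cells were the channel Tpcn1 (-1.71 and -1.33), Scarb2, the receptor that carries beta-glucocerebrosidase to lysosomes (-1.41 and -1.80), and the nucleoside transporter Slc29a3 (-1.35 and -1.42). None of the other pump subunits (16 measured of 20) was past 2-fold with R848, in KO or WT cells. Their medians were 0.11 and 0.01, and Atp6v0d2 and Atp6v1h thus stood outside the range from -0.93 to 0.86 of these subunits in KO cells and from -0.81 to 0.58 in WT cells.

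Of 17 measured genes (18 listed) for relatives of TFEB and for mTORC1 and its lysosomal anchors, Tfec rose (1.17) and Fnip2 fell (-1.05) with R848 in KO cells, and neither passed 2-fold in WT cells (0.95 and -0.58).

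Inhibitors of cathepsins and granule proteases were mostly higher with R848. In KO cells 7 of 12 compared rose and 2 fell, and in WT cells 9 of 14 rose and 2 fell. On the log2 scale, the stefin genes Stfa2 (2.72 and 3.31) and Stfa2l1 (2.43 and 3.03) rose in KO and WT cells. The serpin genes Serpina3g and Serpina3f rose at least 18.3-fold and 15.2-fold in KO cells and by 2.43 and 2.36 on the log2 scale in WT cells. Stefins and these serpins form families of near copies, so probes may read more than their own gene. Between genotypes with R848, 7 of 14 inhibitors were at least 2-fold lower in KO cells. Stfa1 and Csta1 were at least 5.73-fold and 5.55-fold lower, and Cst7 (-1.85) and Serpinb1a (-1.47) were lower on the log2 scale. Untreated, 2 of 13 were lower in KO cells, and these were again Cst7 (-2.16) and Serpinb1a (-1.66). Several of these inhibitors are also made by granulocytes and their precursors, whose markers were lower on the same KO arrays as given above, and their part in this was not tested.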

How the data were processed

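The arrays were read out by the authors in Agilent Feature Extraction (11.5.1.1 in the submitters' processing notes). Its processed signal is, per the file headers, a linear intensity corrected for background and spatial trend within an array, with no normalization between arrays, on a probe grid annotated to mm9. The authors also deposited 39374 spots of scaled intensity, each column being the processed signal times 1 factor (4.13 for KO with R848, 4.06 for KO untreated, 3.85 for WT with R848 and 3.72 for WT untreated, within 1% for 100% of spots). The column medians were 685, 720.0, 675 and 705, and what set the factors is unknown. The log2 ratios between arrays that the authors deposited were not used.

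Here log2 of the processed signal minus each array's 75th percentile was used. Spots marked as outliers were left out (70 to 115 per array), and spots of a probe were averaged. Of 56605 probes, 40458 were named, 28867 by Entrez ID, 10230 by accession, 75 by symbol, 45 by synonym and 1241 by the symbol in the file, with symbols updated to the GRCm38.p6 gene table. They stood for 25107 genes. A probe was well above background where at least 0.5 of its spots were so marked. Each gene's value is that of the probe with the highest mean log2 over the arrays, provided 1 array or more had it above background. A dim side not well above background was set to that array's lowest value among probes above it, or its own where higher, and the fold is then written with "at least". The KO response minus the WT response uses these values too, and is no bound there.

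The members and all lists were chosen with earlier results of these data known. All members are named. From each pathway list at most the 4 largest differences past 2-fold per direction and comparison are named. From the marker lists come genes with the lowest or highest change in a comparison, or not measured. Siglech was named after its values were seen. The calculation of differences was tested on simulated data. Alternatives were median scaling, another percentile basis, quantile normalization and normexp (limma 3.58.1, R 4.3.3), the authors' table, the mean over probes, both filters on dim probes, and leaving out bright areas. The files hold no mean spot signal, so normexp ran on the median signal and background, with an offset of 50. Sequences came from RefSeq. Python 3.11.15, numpy 2.4.6, pandas 2.3.3 and matplotlib 3.10.9 were used.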

Additional observations from a re-analysis of the deposited data

Results flagged for a closer look

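In 4 cases the arrays of a gene moved in opposite directions in the groups compared, each by more than 2 of the median SDs between spots. With 1 array per group none of these differences was tested. The R848 response of Gaa was 0.23 in KO and -1.88 in WT cells on the log2 scale. The same gene differed between KO and WT cells by 0.16 with R848 and by -1.96 untreated. The untreated WT array stood apart from the other arrays at this probe. Of its other 2 probes, 1 went the same way in WT cells by less (-0.55) and 1 the opposite way. Lgmn, read by 1 probe, differed between KO and WT cells by -0.26 with R848 and by 0.26 untreated. Tfeb differed between KO and WT cells by -0.30 with R848 and by 0.27 untreated at the probe used, where its 4 probes did not all go the same way.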

How the results depend on the processing

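The processing was varied in 9 other ways and in 1 chosen after seeing the data (leaving out Gaa, whose probes disagree). Of the values over all members, 129 stayed close to those reported and 21 moved. The cause was not tested. A change of direction was marked only for differences past 2-fold. No median over the members reached that, so this mark says nothing on their direction. For R848 over untreated in KO cells, the mean over probes left 1 member higher, quantile normalization made 5 lower, and the median was -0.29 with median scaling, -0.51 with the percentile taken over probes above background on all arrays and -0.54 with quantile normalization. In WT cells, 2 members were higher with median scaling and 0 with that percentile, quantile normalization, normexp or the mean over probes, and the median was -0.32 with median scaling and -0.58 with quantile normalization. For KO over WT with R848, 0 were higher with normexp or when a probe had to be above background on every array compared, and 2 (Ctsk and Atp6v0d2) with the authors' table. Untreated, 0 were higher with normexp, and 0 were lower with the mean over probes or without Gaa. For the KO response minus the WT response, 0 were higher with the mean over probes or without Gaa and 2 (Gaa and Ctsk) without filter and bounds. Median scaling moved the median of all genes for R848 over untreated to 0.09 in KO and 0.13 in WT cells, and the higher share of calls to 63.1% in place of 51.0% and to 61.0% in place of 46.9%. That share was 60.2% with the authors' table and 62.1% without a filter in place of 48.9% for KO over WT with R848, and 33.6% with normexp in place of 46.8% untreated. Counts of all genes past 2-fold, higher and lower, with normexp were 813 and 546 in place of 1357 and 1304 for R848 over untreated in KO cells, 702 and 575 in place of 1162 and 1316 in WT cells, 104 and 148 in place of 440 and 459 for KO over WT with R848, 111 and 219 in place of 569 and 646 untreated, and 143 and 100 in place of 602 and 517 for the KO response minus the WT response. Without a filter the last 3 pairs were 1377 and 839, 1479 and 1180, and 1728 and 1761, and the lower counts for R848 were 2279 in KO and 2261 in WT cells. With probes above background on every array compared, the higher counts for KO over WT were 259 with R848 and 323 untreated. Single members gave 1385 values close to those reported and 277 that moved. No paired analysis was possible because each group has 1 array, and no array could be left out. The number of arrays limits every value, and Ctsk and Batf2 were not well above background on 1 array each.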
